A study of Homo sapiens with 17 samples.

Results

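The Notch pathway genes described here are 39 named genes of the 20037 protein-coding genes in the reference: 4 receptors, 5 ligands, 6 genes of the cleavage enzymes, 4 glycosyltransferases, 4 genes of the transcription complex, 6 modifiers (NUMB, NUMBL and the DTX genes), 9 HES and HEY genes, and ATOH1. They were listed by name for their place in the pathway, with earlier results of these data known. What was measured is where tagged H2A.Z, a variant of histone H2A that often flanks starts of transcription, was enriched in chromatin of Caco-2/15, a line from a human colon cancer whose cells come to resemble absorptive enterocytes after reaching confluence. Per the labels, cells were heterozygous for a Flag tag on H2AFZ, which encodes H2A.Z.1, or on H2AFV, which encodes H2A.Z.2, and were either subconfluent or kept for 7 days after confluence. Chromatin immunoprecipitation with a Flag antibody and sequencing gave 1 peak list for each of 2 experiments (Exp1 and Exp2) in each of the 4 groups, and these 8 lists are used here. Every list thus comes from cells that carry a tagged allele, and how many clones stand behind each genotype is not stated in the labels. They do not say whether Exp1 and Exp2 were separate cultures, so p-values measure only the spread between these lists, which may be technical.

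In Notch signalling, a ligand on one cell binds a receptor on its neighbour, ADAM proteases and then γ-secretase cut the receptor, and the freed intracellular domain enters the nucleus. There it joins the DNA-binding protein RBPJ and a Mastermind-like coactivator and turns on genes of the HES and HEY families, which encode repressors. In the intestinal crypt Notch activity keeps progenitors and favours the absorptive fate, in part because HES1 represses ATOH1, the factor that starts secretory differentiation.

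The deposited lists held 30603 to 79425 intervals, so from each the 30603 intervals of lowest p-value were kept, as many as in the shortest list (subconfluent H2A.Z.2, Exp2). The weakest interval kept had a −log10 p of 5.19 in that list and of 9.99 to 16.8 in the other 7 lists. A gene counted as having a peak where an interval reached to within 1 kb of one of its annotated ends. Its level is the percentile of the authors' fold enrichment within that list, for the strongest such interval, where 100 is the strongest. A percentile places a gene among the peaks of its own list and does not give the amount of bound protein, and an interval below the authors' threshold appears as absent. The interval names carry 3 prefixes: 1 for both H2A.Z.1 lists of Exp1, 1 for both H2A.Z.2 lists of Exp1, and 1 for all 4 lists of Exp2. What a prefix stands for is not stated in the labels. Isoform and prefix cannot be told apart in Exp1, while the growth states of an isoform share a prefix in each experiment. Read depth per library is unknown from peak lists. Peaks do not measure RNA, so cell type markers could be checked only for peaks: 3 of 8 intestinal epithelial marker genes (CDX1, CDX2 and HNF4A) had a peak in all 8 lists, as did 1 of 6 secretory markers (GFI1) and 0 of 4 endothelial and blood markers, against 54.5% of all genes. VIL1 had one in 6 lists, EPCAM in 5, KRT8 and KRT18 in 4 and KRT20 in 0, while PECAM1 of endothelium had one in 7 and CD3E of T cells in 6, so peaks at these markers did not separate the cell types.

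The promoters that the results turn on are those of HES and HEY genes with the letters recognised by RBPJ, and that of ATOH1. For 33 of the 39 genes the start of transcription and a promoter of 300 bases were matched by symbol in the RefSeq table (GRCh38.p14). The genes not matched were DLL1, DLL3, HEY1, DTX1, DTX3 and MFNG. The letters GTGGGAA, searched on both strands, stood in 5 of the 33 promoters (15.2%), against 938 of all 15825 promoters of the same length (5.93%). These were the promoters of HES1, HES4, HES5, HEY2 and HEYL. The 250 bases upstream of each start are printed 5′ to 3′ along the gene, from RefSeq, with matches in capitals. For HES4 (chr1:1000098-1000347 on the minus strand), HES5 (chr1:2530264-2530513 on the minus strand), HEYL (chr1:39639644-39639893 on the minus strand) and HEY2 (chr6:125749382-125749631 on the plus strand), the capitals mark GTGGGAA or its reverse complement TTCCCAC.
HES4: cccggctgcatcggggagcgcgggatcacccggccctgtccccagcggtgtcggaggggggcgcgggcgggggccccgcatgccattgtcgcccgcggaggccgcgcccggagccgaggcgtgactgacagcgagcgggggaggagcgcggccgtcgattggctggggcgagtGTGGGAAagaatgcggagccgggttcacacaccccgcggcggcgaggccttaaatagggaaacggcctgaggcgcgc
HES5: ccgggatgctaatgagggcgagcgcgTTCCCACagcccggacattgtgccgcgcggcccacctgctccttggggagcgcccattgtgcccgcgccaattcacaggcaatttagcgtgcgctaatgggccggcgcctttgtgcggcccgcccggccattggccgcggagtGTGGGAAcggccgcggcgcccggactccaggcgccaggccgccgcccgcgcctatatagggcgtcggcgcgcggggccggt
HEYL: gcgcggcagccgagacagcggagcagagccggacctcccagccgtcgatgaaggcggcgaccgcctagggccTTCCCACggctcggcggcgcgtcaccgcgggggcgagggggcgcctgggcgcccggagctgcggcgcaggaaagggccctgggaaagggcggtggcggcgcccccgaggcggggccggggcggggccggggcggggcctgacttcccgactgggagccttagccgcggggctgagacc
HEY2: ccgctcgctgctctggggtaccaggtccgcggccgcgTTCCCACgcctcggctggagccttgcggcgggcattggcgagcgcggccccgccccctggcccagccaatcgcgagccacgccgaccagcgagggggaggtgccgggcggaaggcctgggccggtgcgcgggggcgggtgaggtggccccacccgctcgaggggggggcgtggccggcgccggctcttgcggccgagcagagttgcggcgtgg
Counted from −1 at the base before the start, the first base of the match lay at position −77 in HES4, at −224 and −81 in HES5, at −178 in HEYL and at −213 in HEY2. HEY2 had a further match at −4, which spans the start and is not in capitals. The promoters of HES1 (chr3:194135898-194136147 on the plus strand) and ATOH1 (chr4:93828503-93828752 on the plus strand) are shown because HES1 encodes a repressor that acts on both genes. Here the capitals also mark 2 motifs bound by HES proteins, CACGCG and CACNAG, on either strand.
HES1: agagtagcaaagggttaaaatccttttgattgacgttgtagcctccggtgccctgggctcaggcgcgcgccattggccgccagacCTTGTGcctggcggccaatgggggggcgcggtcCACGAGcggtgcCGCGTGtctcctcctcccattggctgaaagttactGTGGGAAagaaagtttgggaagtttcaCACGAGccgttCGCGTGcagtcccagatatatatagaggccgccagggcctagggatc
ATOH1: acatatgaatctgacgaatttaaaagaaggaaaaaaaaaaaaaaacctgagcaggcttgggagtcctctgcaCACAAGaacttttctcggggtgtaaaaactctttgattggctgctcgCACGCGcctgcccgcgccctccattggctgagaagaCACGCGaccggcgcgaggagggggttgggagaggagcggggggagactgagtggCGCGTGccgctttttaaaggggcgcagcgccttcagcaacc
HES1 held GTGGGAA at −85. CACGCG stood in 9 of the 33 promoters (27.3%) and in 14.2% of all promoters, and CACNAG in 13 (39.4%) and in 36.9%. The letters CACGTG, also searched as a motif of HES and HEY proteins, stood in 1 promoter (3.03%), that of ADAM10, and in 8.45% of all. ATOH1 had 4 matches to CACGCG, at −131, −95, −41 and 16, the last beyond the printed stretch. A match describes letters only. The same letters went with very different peak patterns. HEY2 and HEYL had a peak in all 8 lists, HES4 in 7, HES1 in 4 and HES5 in none.

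Between 26 and 33 of the 39 genes (66.7% to 84.6%) had a peak in a given list, against 59.6% to 62.0% of all genes. A total of 25 genes (64.1%) had a peak in all 8 lists, where 54.5% of all genes did. Only 4 genes (10.3%) had none in any list, NOTCH2, RBPJ, DTX2 and HES5, where 33.1% of all genes had none. The other 10 genes (25.6%) were present in some lists, against 12.4% of all genes. In the whole lists, before they were reduced, 26 of the genes had a peak in every list (57.9% of all genes) and the same number as before, 4, had none (26.1% of all genes). Where the peak was present in all lists, its level was not high for such genes. The median of the 25 mean percentiles was 71.8, against 76.9 over all 10919 genes present in all 8 lists, and the medians per list were 68.2 to 77.3 against 76.8 to 79.2. NUMBL (mean 91.0), HEY1 (88.9), DLL4 (88.7), DTX4 (87.9) and ADAM17 (87.2) stood highest, and MAML1 (36.1) lowest.

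**Figure D1:**
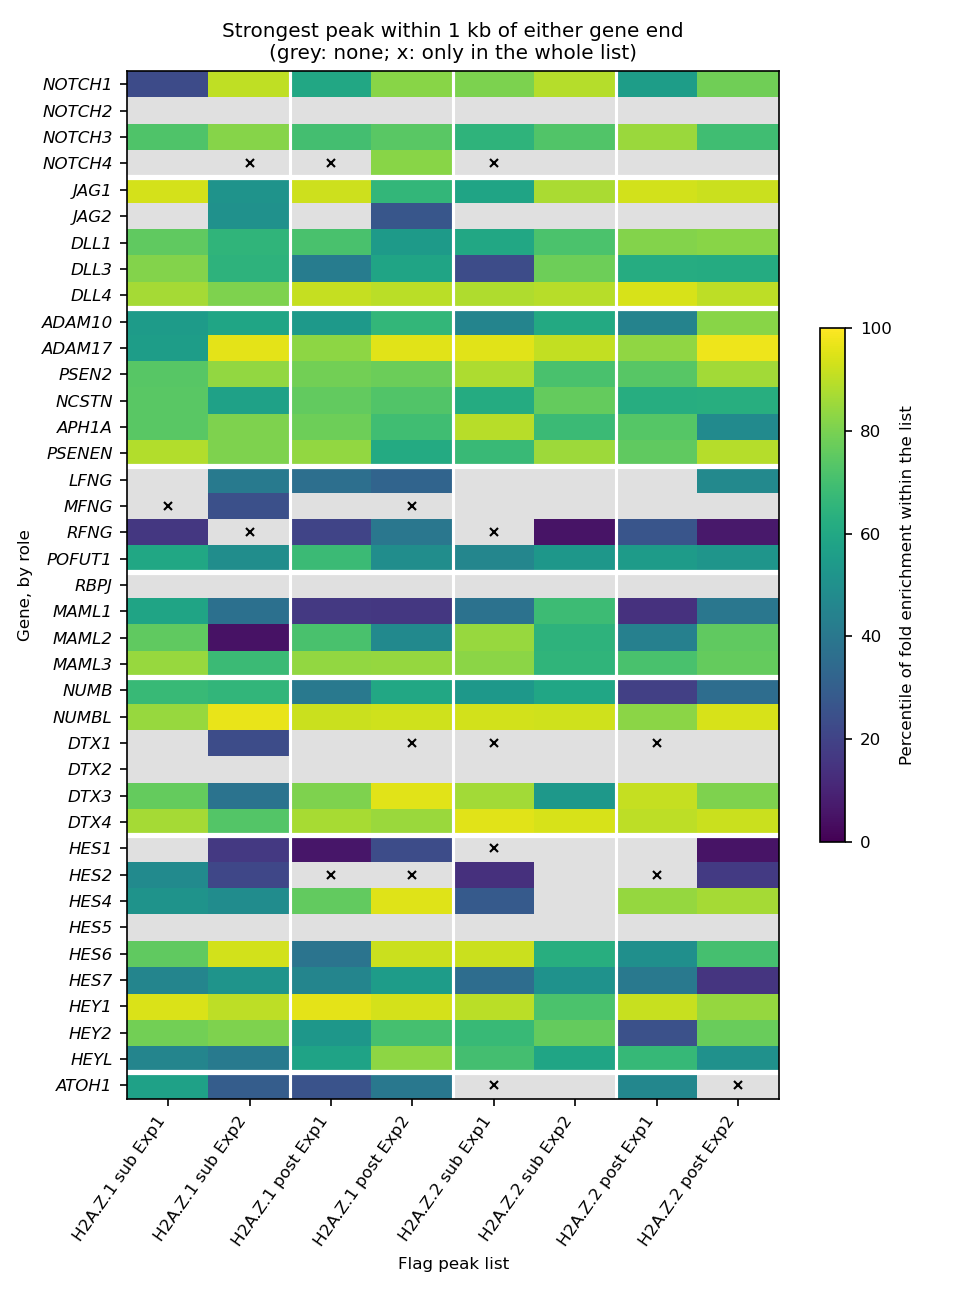
Percentile of fold enrichment within each equal-length list (colour, 0 to 100) for the strongest peak at either end of the 39 Notch pathway genes (rows, grouped by role) in the 8 lists (columns, by isoform, growth state and experiment). Grey cells are lists without a peak, and a cross marks one present only in the whole list. Of the rows, 25 are coloured in all 8 lists and 4 in none.

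Among the receptors, NOTCH1 (9:136494433-136546048) and NOTCH3 (19:15159038-15200995) had a peak at their start in every list, while NOTCH2 and NOTCH4 did not. NOTCH1 is the main receptor of the intestinal epithelium together with NOTCH2. In H2A.Z.1 its percentile was 22.8 and 90.5 in the subconfluent lists and 60.0 and 82.4 in the postconfluent lists. In H2A.Z.2 the values were 80.2 and 88.9 before and 55.7 and 78.3 after confluence. The range over the 2 subconfluent H2A.Z.1 lists was wider than any gap between groups. NOTCH1 also held an interval inside the gene, at chr9:136526117-136527776, which all 8 lists held at percentiles of 34.7 to 67.5. NOTCH3 was steadier, at 65.0 to 85.1 over the 8 lists. NOTCH2 (1:119911553-120069662) had no interval nearer than 8082 bp to either end in any equal-length list. Its promoter is a near copy of another: 236 of its 25-base words (85.5%) also occur in the promoter of NOTCH2NLA on chromosome 1. The treatment of reads that match several places is not stated in the labels or notes, so the missing peak at NOTCH2 is uncertain. NOTCH4 (6:32194843-32224067) counted as present in 1 list, postconfluent H2A.Z.1 Exp2, at 82.4. That interval belongs to a region at chr6:32195792-32197581, just inside the 3′ end of the gene, which all 8 lists held at 82.4 to 98.4. Its distance from the gene end, 949 to 1112 bp, straddles the 1 kb limit, and the next gene, GPSM3, ends 680 bp from NOTCH4. The one-list presence of NOTCH4 is therefore set by the window.

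Of the ligands, JAG1, DLL1, DLL3 and DLL4 had a peak in all 8 lists and JAG2 in 2. DLL4 (15:40929340-40939073), a Delta-like ligand of secretory precursors and of endothelium, was high throughout. Its percentiles were 86.5, 80.7, 88.0 and 89.3 in the subconfluent lists and 91.1, 89.8, 94.1 and 90.1 in the postconfluent lists, with the H2A.Z.1 lists first. All 4 postconfluent values thus lay above all 4 subconfluent values, by a margin of less than 1 percentile. JAG1 (20:10637684-10673999), a Jagged ligand, had 93.4 and 51.4 in subconfluent and 92.4 and 66.3 in postconfluent H2A.Z.1 lists. In H2A.Z.2 it had 58.5 and 87.4 in subconfluent and 93.1 and 91.8 in postconfluent lists. The states overlapped, and in H2A.Z.1 the experiments lay farther apart than the states. DLL1 spanned 54.6 to 82.4 and DLL3, a ligand that acts mostly inside the cell, 23.3 to 81.5. The interval at DLL1 also reached the end of FAM120B, 375 bp away, in all 8 lists, so these 2 genes cannot be told apart there. JAG2 was listed only in the Exp2 lists of H2A.Z.1, at 50.7 before and 26.6 after confluence. Beyond its gene end, DLL4 also had 2 downstream regions present in all 8 lists, at chr15:40940482-40941949 (58.4 to 98.0) and chr15:40942022-40943184 (47.6 to 85.4).

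The cleavage enzymes were the most uniformly occupied group, with all 6 genes present in all 8 lists. ADAM10 and ADAM17 encode the membrane proteases, and PSEN2, NCSTN, APH1A and PSENEN encode subunits of γ-secretase. ADAM17 had a percentile of 55.8 in subconfluent H2A.Z.1 Exp1 and of 82.9 to 97.6 in the other 7 lists. ADAM10 ranged from 44.9 to 82.1, NCSTN from 57.2 to 76.4, APH1A from 48.0 to 89.4, PSENEN from 61.1 to 89.0 and PSEN2 from 71.1 to 87.7. The 3 γ-secretase genes NCSTN, APH1A and PSENEN share their intervals with close neighbours in all 8 lists: NCSTN with COPA, 133 bp away, APH1A with C1orf54 and PSENEN with U2AF1L4 and LIN37. Of the glycosyltransferases, POFUT1, which adds the O-fucose that receptors need, was present in all 8 lists at 45.9 to 68.0 and shares its interval with PLAGL2, 137 bp away. The Fringe genes LFNG, MFNG and RFNG, whose products extend that fucose, were present in 4, 1 and 6 lists and never above 47.0. RFNG was present in all 8 whole lists, so its absences in the reduced lists reflect weak intervals.

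In the transcription complex, the Mastermind-like coactivator genes MAML1, MAML2 and MAML3 had a peak in all 8 lists, while RBPJ had none at either annotated end. RBPJ (4:26105449-26435131) is annotated over a long locus, and the RefSeq promoter table places its start 237691 bp inside that locus, where no list had a peak either. All 8 lists instead held a region inside the gene at chr4:26318626-26321138, at 65.2 to 95.1, centred upstream of the start in the table, at position −23258 bp. An empty gene end at RBPJ is thus a statement about the annotated positions. MAML1 was at the low end in most lists: 58.5 and 36.9 in subconfluent and 16.6 and 16.4 in postconfluent H2A.Z.1 lists, then 37.6 and 68.5 in subconfluent and 14.4 and 39.7 in postconfluent H2A.Z.2 lists. Within each isoform and experiment the postconfluent value was the lower, although the states overlapped across experiments, with 36.9 and 37.6 before confluence below a 39.7 after it. In 6 lists an interval at MAML1 also reached CANX. MAML2 was the most variable of the 3, from 4.84 in subconfluent H2A.Z.1 Exp2 to 84.6 in subconfluent H2A.Z.2 Exp1, and MAML3 ranged from 65.4 to 84.4.

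Among the modifiers, NUMBL and DTX4 were high in every list and NUMB was of middle rank. NUMB encodes an endocytic adaptor that inhibits Notch, NUMBL its paralogue, and the Deltex (DTX) genes encode E3 ubiquitin ligases. NUMB had 67.2 and 65.8 in subconfluent and 40.5 and 60.0 in postconfluent H2A.Z.1 lists. In H2A.Z.2 it had 53.5 and 59.2 in subconfluent and 19.0 and 35.6 in postconfluent lists. Here too each postconfluent value was below its subconfluent counterpart of the same experiment. Among the members in all 8 lists, DLL4, HEY1 and DTX3 had each postconfluent value above its counterpart. For DTX3 the Exp2 values set one gene end against the other, as described below. Its region past the end of higher coordinate went from 97.4 to 95.4 in H2A.Z.1 Exp2. The share of all genes that moved one way throughout was not counted, so these orders describe single genes only. NUMBL had 82.5 to 96.6 over the 8 lists, at an interval that also reached COQ8B, 879 bp away, in every list. DTX4 had 86.7, 73.4, 86.8 and 85.1 in the H2A.Z.1 lists and 95.5, 93.8, 90.0 and 92.1 in the H2A.Z.2 lists, so the isoforms did not overlap. In Exp2, where both isoforms share a prefix of the interval names, the values were 73.4 and 85.1 for H2A.Z.1 and 93.8 and 92.1 for H2A.Z.2. DTX3 carried peaks at both ends. Past the end of higher coordinate, all 8 lists held a region at chr12:57610572-57612519, at 76.4 to 97.4. It reached within 1 kb of the gene in 6 lists, at 76.4 to 95.4. In the subconfluent Exp2 lists of H2A.Z.1 and H2A.Z.2 it stood at 97.4 and 80.6 but beyond 1 kb, so there the weaker peak at the other end (37.9 and 53.3) is the one that counts. In 6 lists an interval at DTX3 also reached ARHGEF25, 314 bp away. DTX1 appeared in 1 list at 23.2, and DTX2 had no interval within 42824 bp in any equal-length list.

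The HES and HEY genes differed in presence. HES6, HES7, HEY1, HEY2 and HEYL, 5 of the 9, were present in all 8 lists, as were 54.5% of all genes. HES1, HES2 and HES4 were in some lists (12.4% of all genes) and HES5 in none (33.1%). In the whole lists HES1 was in 5, and HES2 and HES4 were in 7 each. HEY1 was the strongest of the family at 71.8 to 96.0. HEY2 ranged from 24.9 to 80.8, HEYL from 41.4 to 83.1, HES6 from 38.6 to 93.0 and HES7 from 15.6 to 55.1. The peak of HES7 stands at its annotated end, and the start in the RefSeq table lies 2528 bp inside it, where 2 of the 8 lists had a peak. HES6, unlike its relatives, encodes an antagonist of HES1, and a region 3516 bp beyond its gene, chr2:238234351-238235152, stood at 92.6 to 99.7 in all 8 lists.

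HES1 (3:194136148-194138732), the best known Notch target in the intestine, carried little at its start. In equal-length lists its peak was absent from both subconfluent H2A.Z.2 lists, from subconfluent H2A.Z.1 Exp1 and from postconfluent H2A.Z.2 Exp1. In the other 4 lists its percentile was 16.5, 5.94, 23.2 and 5.08. The 1 kb limit bears on these values. An upstream region at chr3:194134457-194135483 was in 5 lists, at 5.94 to 35.7. It stood at 21.0 in subconfluent H2A.Z.1 Exp1 and at 35.7 in postconfluent H2A.Z.2 Exp2, in both from an interval beyond 1 kb. Over the promoter printed above, no list held an interval: the nearest of the equal-length lists lay 665 to 2012 bp from the nearest gene end. Downstream of HES1, in contrast, all 8 lists held 2 regions, chr3:194140569-194141515 at 24.4 to 75.6 and chr3:194141695-194143120 at 52.3 to 83.9, whose centres lie 4894 and 6259 bp past the start. HES5 (1:2528745-2530263) had a like arrangement, with no interval within 1 kb of either end. A region at chr1:2526405-2527360 was in all 8 lists at 39.7 to 86.5, past the 3′ end of the gene. It lay 1385 to 1702 bp from that end, so the absence at HES5 depends on the 1 kb limit. With a window of 2 kb, 3 members had no peak in any list. The map of intervals around the starts of 6 genes shows these gaps.

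**Figure D2:**
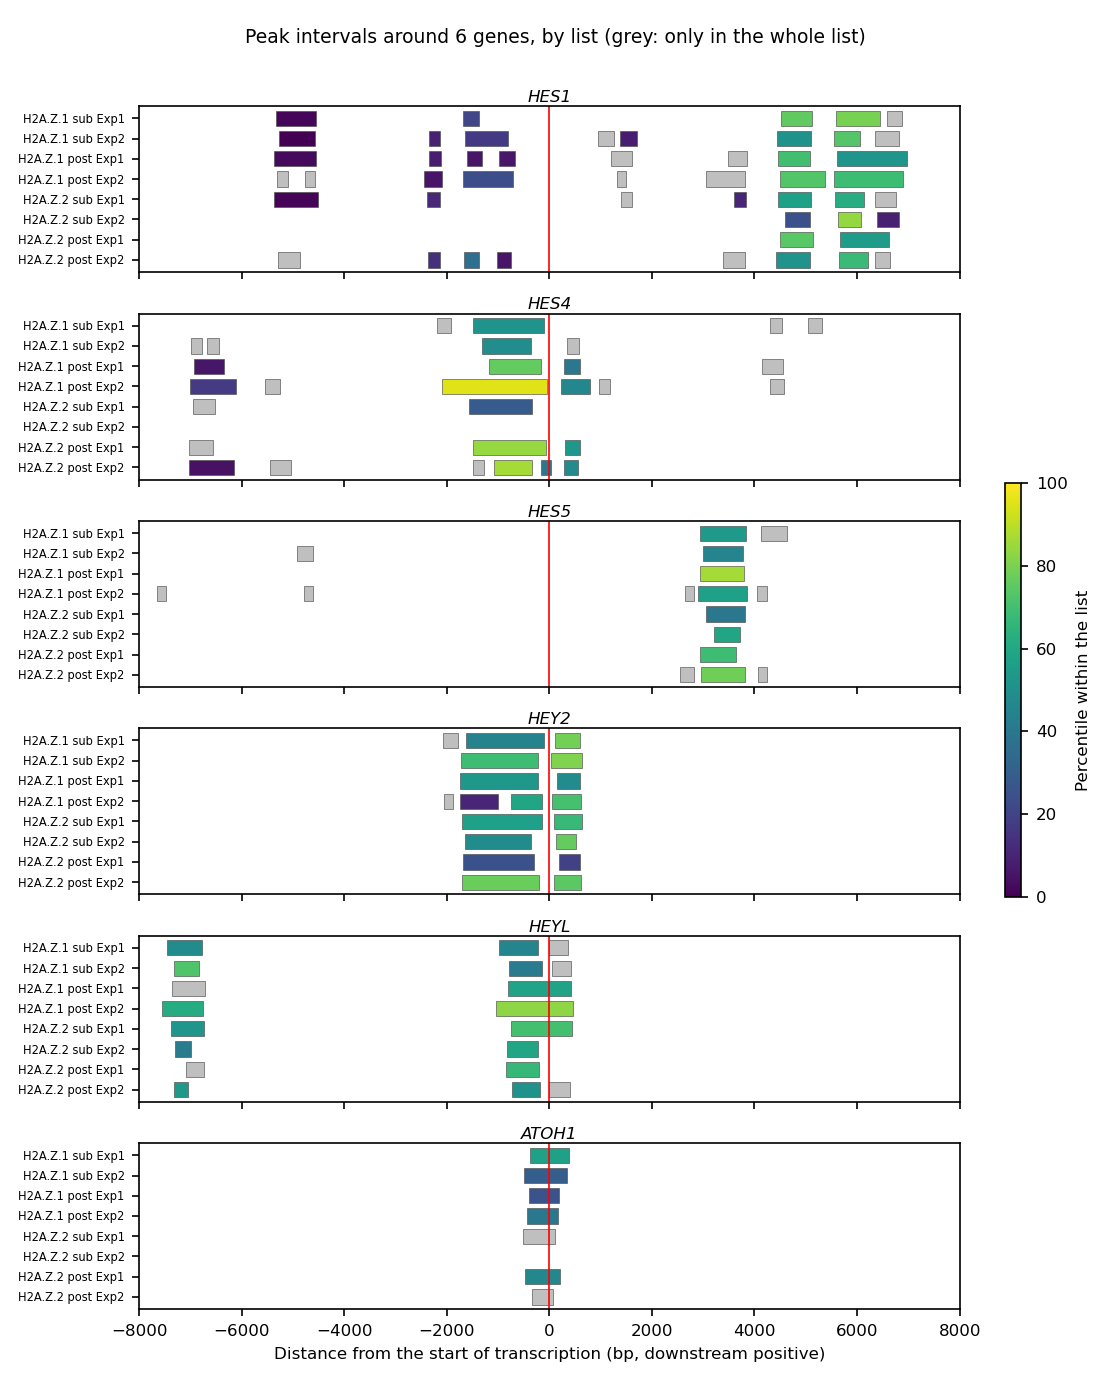
Deposited intervals of the 8 lists (rows) around the starts of transcription of HES1, HES4, HES5, HEY2, HEYL and ATOH1 (panels), by distance from the start in bp. Colour gives the percentile in the equal-length list and grey marks intervals found only in the whole list. HES1 and HES5 have no interval over the start, and HES4 has one upstream in 7 of 8 lists.

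HES4 (1:998964-1000097, minus strand), a human HES gene with no mouse counterpart, was singled out after its values were seen, as the member with the widest gap between growth states. Its percentile was 51.5 and 48.5 in subconfluent and 76.1 and 95.3 in postconfluent H2A.Z.1 lists. In H2A.Z.2 it was 28.5 and absent in subconfluent and 84.3 and 86.5 in postconfluent lists. All 4 postconfluent values exceeded the 3 subconfluent ones, and in the fourth subconfluent list no peak passed the authors' threshold. The list without the peak is the shortest deposited list, and its nearest interval lay 13059 bp away. The summits lay upstream of the start in all 7 lists, at −539 to −477 in the postconfluent lists and at −1047, −527 and −1018 in the subconfluent lists. A further interval inside the gene, at 39.8, 46.2, 52.8 and 47.6, was present in the 4 postconfluent lists and in no subconfluent one. In the whole lists it also appeared in subconfluent H2A.Z.1 Exp2, at a whole-list percentile of 57.9. On that scale the postconfluent lists had 67.3, 79.3, 63.1 and 68.8. The peak at the start kept non-overlapping states in the whole lists (60.8, 68.1 and 76.3, or absent, against 87.1 to 98.2). ATOH1 (4:93828753-93830964) was present in all 4 H2A.Z.1 lists, at 57.2 and 29.4 before and 25.4 and 40.1 after confluence. In H2A.Z.2 it was listed in postconfluent Exp1 alone, at 46.1, but it was in 7 of the 8 whole lists.

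To ask whether presence differed with state or isoform, genes listed in both lists of one group and neither list of the other were counted. HES2 was in both subconfluent H2A.Z.1 lists (47.9 and 21.3, at its 3′ end) and in neither postconfluent one, a pattern of 0.594% of all genes. ATOH1 was in both subconfluent H2A.Z.1 lists and neither subconfluent H2A.Z.2 list, a pattern of 0.649% of all genes. In the other 6 directions no member showed such a pattern, against 0.509% (H2A.Z.1, postconfluent alone), 0.429% (H2A.Z.2, subconfluent alone), 0.664% (H2A.Z.2, postconfluent alone), 0.170% (subconfluent, H2A.Z.2 alone), 0.499% (postconfluent, H2A.Z.1 alone) and 0.140% (postconfluent, H2A.Z.2 alone) of all genes. Neither remained in the whole lists, where MFNG (subconfluent, H2A.Z.1 and not H2A.Z.2, 0.888% of all genes) and NOTCH4 (postconfluent, H2A.Z.1 and not H2A.Z.2, 1.41%) took their place. No member was in all 4 lists of one state and none of the other (0.0848% of all genes were in the subconfluent lists alone and 0.105% in the postconfluent ones), nor in all 4 lists of one isoform alone (0.0449% for H2A.Z.1 and 0.00499% for H2A.Z.2). With 2 lists against 2 no permutation of the lists can reach a p of 0.05, so no p is given.

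Counting complete separation of percentiles, with an absent peak as 0, DLL4 and HES4 were higher in all 4 postconfluent lists, 2 of the 35 members with any peak (5.71%), against 2.89% of 13407 genes. None was higher in all 4 subconfluent lists (2.63% of genes), none in all 4 H2A.Z.1 lists (1.27%), and DTX4 alone in all 4 H2A.Z.2 lists (2.86% of members, 0.820% of genes). These counts were added after the data were seen.

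The change in rank was then tested with limma on normal scores of the within-list ranks of the 10919 genes present in all 8 lists, 25 members among them. A score difference of 1 is 1 standard deviation of a normal distribution over these genes. For postconfluent against subconfluent over both isoforms, limma called 0 of the 25 members with Benjamini-Hochberg adjustment over all genes, against 6 genes in all (0.0550%), a count that ran from 0 to 12 with one list left out. At an unadjusted limma p under 0.05 there were 3 members (12.0%), against 997 genes (9.13%). The 3 were DTX3, MAML1 and NUMB. DTX3 had a score difference of 1.10 (SE 0.429, limma adjusted p = 0.418), which was 0.28 in Exp1 and 1.92 in Exp2. The Exp2 value sets one end of DTX3 against the other, as described above, and with a window of 2 kb the score difference was 0.05 (SE 0.410, limma adjusted p = 0.981). It was 0.72 without subconfluent H2A.Z.2 Exp2. MAML1 had −0.92 (SE 0.363, limma adjusted p = 0.430), with −1.01 in Exp1 and −0.83 in Exp2. NUMB had −0.79 (SE 0.348, limma adjusted p = 0.497), with −0.57 in Exp2 and a larger fall in Exp1. None of the 3 passed the adjusted test. HES6 had −0.81 (SE 0.487, limma adjusted p = 0.627), with −1.70 in Exp1 and 0.08 in Exp2. The HES6 value turned on single lists, at −0.19 without postconfluent H2A.Z.1 Exp1, −0.41 without subconfluent H2A.Z.2 Exp1, −0.52 without subconfluent H2A.Z.1 Exp2 and −1.42 without postconfluent H2A.Z.1 Exp2. Of the 25 score differences 13 lay above 0, with a median of 0.00, and 49.9% of all genes lay above 0. DLL4, whose percentiles did not overlap between states, had a score difference of 0.34 (SE 0.340, limma adjusted p = 0.816). It was −0.02 with a window of 2 kb, which takes in the first region downstream of DLL4, and 0.21 when ranked by −log10 p.

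HES4 could not enter that fit, since 1 list lacks its peak. Without the list of subconfluent H2A.Z.2 Exp2, its score difference between states was 1.88 (SE 0.416, limma adjusted p = 0.177). It was 1.73 (SE 0.526) in H2A.Z.1 and 2.03 (SE 0.644) in H2A.Z.2, where the lone subconfluent H2A.Z.2 list is assumed to vary like the others. This was the lowest adjusted p of any member in any setting, and it did not pass.

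**Figure D3:**
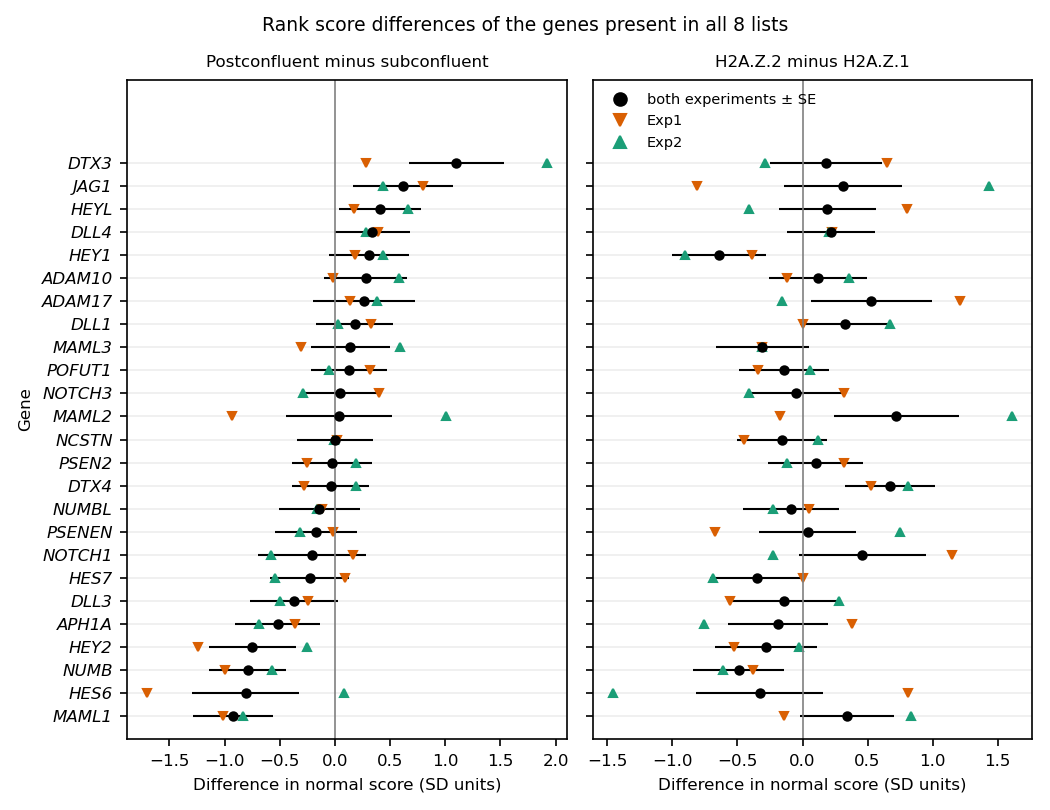
Score difference by limma with its SE for the 25 ranked members, postconfluent minus subconfluent (left) and H2A.Z.2 minus H2A.Z.1 (right), with the differences within Exp1 and Exp2 as separate points. DTX3, MAML1, HES6 and NUMB lie farthest from 0 on the left, and no member passed the adjusted test in either panel.

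For H2A.Z.2 against H2A.Z.1, limma called 0 members and 0 of all genes (0%), and at an unadjusted p under 0.05 there were 0 members against 409 genes (3.75%). MAML2 had the highest score difference, 0.72 (SE 0.481, limma adjusted p = 0.999), but −0.17 in Exp1 and 1.61 in Exp2. For MAML2 it was 0.06 without subconfluent H2A.Z.1 Exp2, 0.45 without postconfluent H2A.Z.2 Exp2, 0.47 without subconfluent H2A.Z.2 Exp1 and 1.38 without subconfluent H2A.Z.1 Exp1. DTX4 had 0.67 (SE 0.345, limma adjusted p = 0.999), with 0.53 in Exp1 and 0.81 in Exp2. HEY1 had the lowest, −0.64 (SE 0.363, limma adjusted p = 0.999), with −0.39 and −0.90, and −0.38 without subconfluent H2A.Z.2 Exp2. Within H2A.Z.1, limma called 0 members and 0 genes (0%) between states. There, 2 members were at an unadjusted p under 0.05, against 755 genes (6.91%): DTX3 at 1.51 (SE 0.607, limma adjusted p = 0.666) and HEYL at 1.12 (SE 0.526, limma adjusted p = 0.714). The DTX3 value again sets one end against the other in Exp2, and it was −0.04 (SE 0.579, limma adjusted p = 0.995) with a window of 2 kb. It was 0.79 without subconfluent and 0.95 without postconfluent H2A.Z.1 Exp2. For HEYL the value was 0.53 without postconfluent H2A.Z.1 Exp2 and 1.69 without postconfluent H2A.Z.1 Exp1. Within H2A.Z.2, within either state, and for the difference of the state effects between isoforms, limma called 0 members and 0 genes (0%). At an unadjusted p under 0.05 these 4 comparisons held 0 members each, against 637 genes (5.83%) for state within H2A.Z.2, 405 (3.71%) for isoform in subconfluent and 385 (3.53%) in postconfluent cells, and 347 (3.18%) for the difference of the effects.

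Where a peak sat relative to the start, and how wide it was, also varied among the genes. Among the 33 genes with a matched start, 20 had a peak within 1 kb of it in all 8 lists. In 5 of these 20, against 33.5% of 8288 genes, the summit of the strongest peak moved by no more than 200 bp over the lists. For PSENEN it stayed between −448 and −405, for POFUT1 between 195 and 271, for NUMBL between −892 and −801, for MAML2 between −6 and 85 and for DTX4 between −330 and −225. In 14 of the 20 (70.0%, against 46.8% of genes) the strongest summit lay upstream in some lists and downstream in others. ADAM17 shows this evenly, with 4 lists upstream and 4 downstream between −380 and 329. The median range was 624 bp for the members and 412 bp for all such genes. The summit plot shows these fixed and switching positions.

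**Figure D4:**
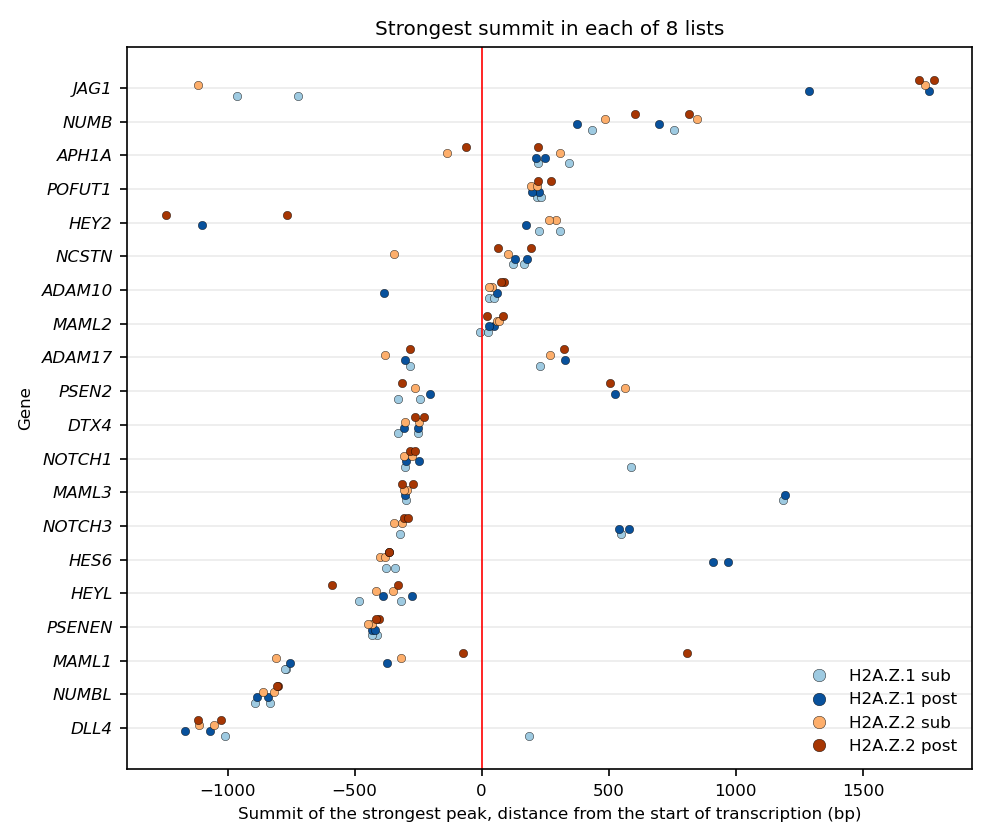
Distance in bp of the strongest peak's summit from the start of transcription (0, negative upstream) in each list, for the members with a peak within 1 kb of the start. Points are lists, coloured by group. PSENEN, POFUT1, NUMBL, MAML2 and DTX4 keep 1 position, and most others lie on both sides of the start.

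Covered length, the bases within intervals in a 10 kb window centred on the start (or, with no start matched, on the stronger gene end), separated the states at JAG1 and PSEN2. JAG1 had 3633, 2494, 3563 and 3450 bp covered in the subconfluent lists and 4046, 4140, 4068 and 3814 bp in the postconfluent lists. In both postconfluent H2A.Z.1 lists this was 1 unbroken interval. PSEN2 had 1239, 1268, 1253 and 894 bp in subconfluent and 1730, 1772, 1929 and 1677 bp in postconfluent lists. These 2 are 5.71% of the 35 members, near the 5.19% of 14154 genes with that pattern. MAML3 had 4436, 3591, 3463 and 4168 bp in the H2A.Z.1 lists and 2720, 2615, 1431 and 2745 bp in the H2A.Z.2 lists, 1 of 35 members (2.86%) against 3.48% of genes. No member showed the opposite order (0.678% of genes for state, 0.155% for isoform).

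The base composition of the promoters overlapped widely between genes with and without a peak at the start. The ratio of observed to expected CpG in the 300 bases had a median of 0.88 in the 20 members with a peak at the start in all 8 lists, 0.95 in the 7 with one in some and 0.52 in the 6 with none. Over all genes the medians fell in that order, 0.86, 0.71 and 0.30. The 6 members with none spread widely. HES5 (1.09) and NOTCH2 (0.90) had high ratios, and DTX2 (0.76) a middle one, at percentile 51.5 of all promoters. LFNG (0.28), NOTCH4 (0.19) and RBPJ at the start in the table (0.11) had low ones. LFNG had a peak in 4 lists at its annotated end, and the start in the table lies 5334 bp inside it. NUMBL had 0.35 with a peak in all 8 lists.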

How the data were processed

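Flag ChIP-seq was deposited as 1 peak list per sample for 8 of the 17 labelled samples, and the other 9 are not analysed here. The submitters' processing notes name BWA, deepTools and hg38. The peak caller, its control and any spike-in scaling were not given in the sources used here. In the deposited lists the score is 10 times the −log10 q-value, the fold enrichment is a ratio, and p-values and q-values are on a −log10 scale. The final column, as deposited, gives the summit's offset in bp. These values were used only within a list, and no depth or interval of counting error can be had from them.

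From each list the 30603 intervals of highest −log10 p were kept, on chromosomes 1 to 22, X and Y. Gene positions are those of RefSeq GRCh38.p14, the same build as hg38, and strand and start came from the RefSeq promoter table (33 of 39 members). Presence needed an overlap of at least 1 bp with the 1 kb on either side of a gene end. Normal scores of within-list ranks were fitted as 4 group means with limma 3.58.1 (R 4.3.3) for 7 comparisons. Tests were 2-sided and adjusted over all ranked genes at 0.05. The fit was tested on simulated data with shifts larger than any score difference printed here for a member. That simulation does not show how often shifts of the observed size would be called. Genes were named for their role in the pathway, with all 39 accounted for. The members, lists and tests were chosen with earlier results of these data known. Alternatives were other list lengths, windows, ends, ranks, a replicate block and lists left out one at a time.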

Additional observations from a re-analysis of the deposited data

Results flagged for a closer look

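In 5 of the 25 ranked genes both experiments moved one way with growth state in H2A.Z.1 and the other way in H2A.Z.2, a pattern of 1125 of 10919 genes (10.3%). The values are score differences, postconfluent minus subconfluent, for Exp1 and then Exp2. DLL1 had −0.18 and −0.42 in H2A.Z.1 and 0.84 and 0.48 in H2A.Z.2, a difference of 0.96 (SE 0.694). The H2A.Z.1 value of Exp1 sets one end of DLL1 against the other. The percentile was 75.7 at the end of lower coordinate before and 71.4 at the end of higher coordinate after confluence. At the latter end, listed in all 8 lists, H2A.Z.1 percentiles went from 45.6 to 71.4 in Exp1 and from 65.5 to 54.6 in Exp2. There the 2 experiments did not move one way in H2A.Z.1. HEYL had 0.54 and 1.70, then −0.20 and −0.38, a difference of −1.41 (SE 0.745). DTX4 had 0.01 and 0.56, then −0.56 and −0.18, a difference of −0.65. NCSTN had 0.08 and 0.61, then −0.05 and −0.63, a difference of −0.69. PSENEN had −0.29 and −0.87, then 0.26 and 0.23, a difference of 0.82. With one list left out, the difference was as small as −0.82 for HEYL (without postconfluent H2A.Z.1 Exp2), −0.33 for DTX4 and −0.37 for NCSTN (both without subconfluent H2A.Z.1 Exp2) and 0.33 for PSENEN (without postconfluent H2A.Z.1 Exp2). For DLL1 it was 0.46 with presence judged by summit or at a single gene end. The limma test of the difference gave an adjusted p of 1.000 for each of the 5.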

How the results depend on the processing

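The members with a peak in every list numbered 25, and 15 both in lists cut to 15301 intervals and in lists of equal covered length. Those in no list numbered 4, and 13, 10 and 8 with 15301 intervals, equal covered length and a 500 bp window. Members in both lists of 1 group and neither of another numbered 2, and 6 by summit, 1 by the start of transcription only (added after the data were seen), and 2 to 8 with one list left out, 8 being without subconfluent H2A.Z.1 Exp1. Genes called by limma between states numbered 6, and 13 in whole lists, 0 with 15301 intervals and with equal covered length, 3 by summit and 44 ranked by −log10 p. With one list left out they numbered 0 to 12: 12 without postconfluent H2A.Z.1 Exp1, 2 without subconfluent H2A.Z.2 Exp1, and 0 without postconfluent H2A.Z.1 Exp2, subconfluent H2A.Z.2 Exp2 or postconfluent H2A.Z.2 Exp1. Within H2A.Z.1 the 0 became 3 (2 kb window), 2 (summit), 2 (−log10 p) and 0 to 2 with one list left out. Within H2A.Z.2 it became 1 (500 bp window) and 0 to 1 with one list left out. Between isoforms in postconfluent cells it became 2 (500 bp window) and 1 (summit). The cause was not tested. No alternative called a member, and the lowest adjusted p of any member ran from 0.177 (HES4, without subconfluent H2A.Z.2 Exp2) to 0.748. Of the alternative values of the 15 limma results printed for single genes, none passed the threshold, 237 kept their sign and 2 reversed. Both reversals came with a 2 kb window, DLL4 between states (0.34 to −0.02) and DTX3 between states in H2A.Z.1 (1.51 to −0.04), and the same window moved DTX3 between states from 1.10 to 0.05. These windows take in a further interval past 1 kb. Leaving out one list moved HES6 between states to −0.19 to −1.42, MAML2 between isoforms to 0.06 to 1.38 and HEY1 to −0.38 to −0.90.

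Experiment numbers were shared between groups, but the labels do not say what an experiment shares. Deviations of same-numbered lists correlated over 10919 genes at 0.207 within H2A.Z.1, 0.158 within H2A.Z.2 and −0.053 to 0.0474 between isoforms. The main fit did not take the numbers as pairs, although differences within each experiment are given beside it. With experiment as a replicate block, limma called 14 genes between states, 2 within H2A.Z.1 and 1 within H2A.Z.2, and 0 members, whose lowest adjusted p was 0.321.

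Peak lists hold no signal below the authors' threshold, so an absent peak is not absent protein. Each group has 2 lists, which limits the precision of every rank.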

Other observations

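A further 33 Notch pathway genes outside the 39 (corepressors, coactivators, ligand regulators and others) were looked up, and 32 were matched. A peak was present in all 8 lists at 18 of the 32 (56.2%, against 54.5% of all genes), in some lists at 12 (37.5%, against 12.4%) and in none at 2 (6.25%, against 33.1%), DLK1 and DNER, which encode non-canonical ligands. Of these genes limma ranked 18 and called 0 in either direction in each of the 7 comparisons. Between states, 3 of the 18 were at an unadjusted p under 0.05, all higher after confluence, with 0 lower, where 997 of 10919 genes (9.13%) were at such a p in either direction. EP300, a histone acetyltransferase that joins the Notch transcription complex, had a score difference of 1.18 (SE 0.538, limma adjusted p = 0.515). CTBP1, a corepressor, had 0.93 (SE 0.402, limma adjusted p = 0.488). NEURL1, an E3 ligase that acts on ligands, had 0.83 (SE 0.368, limma adjusted p = 0.495). Within H2A.Z.1 and then H2A.Z.2 the values were 2.07 and 0.29 for EP300, 0.79 and 1.06 for CTBP1, and 1.63 and 0.03 for NEURL1. At such an unadjusted p, the difference of the state effects held 3 genes above 0 and 1 below (3.18% of all genes). State within H2A.Z.1 held 2 and 1 (6.91%), and state within H2A.Z.2 held 1 and 0 (5.83%). Isoform in subconfluent cells held 0 and 2 (3.71%), and the other isoform comparisons 0. The median over the 18 was 0.33 for state, against −0.00 over all genes, and −0.32 for isoform, against 0.00. For state it was 0.06 within H2A.Z.1 and 0.22 within H2A.Z.2. Among the TLE genes, which encode Groucho corepressors recruited by HES proteins, TLE1 and TLE3 were each present in 7 lists, TLE2 in 5 and TLE4 in 4.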
